A study of Mus musculus with 8 samples.

Results

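The nuclear-encoded subunits of respiratory complexes II to V were followed in cultured mouse hippocampal neurons after knockdown of Cnot7. Members were the entries of the gene table named Sdha to Sdhd, Uqcr, Cox4 to Cox8 or Atp5, together with Cyc1 and Cycs, averaging 1 TPM or more (TPM is a transcript's share of its library, scaled for transcript length) over the 8 libraries. Of 49 entries with such names, 46 reached that mean, out of 23845 entries in the table and 13681 that were tested. The lowest inside the limit was Cox4i2 at a mean of 1.125 TPM, and those outside were Cox8b at 0.625 TPM, Cox7b2 at 0.125 TPM and Cox8c at 0 TPM. By complex the members were 4 of complex II, 9 of complex III including Cyc1, 15 of complex IV and 17 of complex V, plus the electron carrier cytochrome c, Cycs. The name pattern also takes Atp5s and Atp5sl, counted here with complex V, which are not structural subunits of the ATP synthase.

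The neurons were taken from embryos at day 19 and grown in culture. All received a lentivirus on day 13 to 15 of culture, with a hairpin against CNOT7 in the knockdown and a scrambled hairpin in the other cultures, and harvest was on day 17 to 19 of culture. RNA bound to poly(U) agarose was either washed at 50 °C, which takes off tails shorter than 50 nucleotides, and then eluted at 75 °C (long tails), or eluted whole at 75 °C (total). This gave 4 groups of 2 libraries, namely knockdown long tails, scrambled long tails, knockdown total and scrambled total. No label ties the 2 libraries of a group to separate cultures, so p-values measure only the spread between these samples. Neither the strain nor the hairpin sequence is used here.

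The respiratory chain passes electrons from metabolites to oxygen across the inner mitochondrial membrane. Complex II (succinate dehydrogenase) feeds electrons from the citric acid cycle into ubiquinone, complex III (cytochrome bc1) hands them to cytochrome c, and complex IV (cytochrome c oxidase) passes them to oxygen while pumping protons. Complex V (ATP synthase) uses the proton gradient to make ATP, on which neurons depend for ion pumping and synaptic transmission. The core catalytic subunits of complex IV, cytochrome b of complex III and the proton channel subunit a of complex V are encoded in mitochondrial DNA and are not among the members, while all complex II subunits are nuclear. CNOT7 is a deadenylase of the CCR4-NOT complex, which shortens poly(A) tails.

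Cnot7 mRNA was at 12 and 16 TPM in knockdown total RNA, against 42 and 36 TPM in scrambled total RNA. Its long-tail values were 9 and 11 TPM in knockdown, against 28 and 31 TPM in scrambled. The libraries of the groups did not overlap, in the direction that the labels give. Of all tested genes, 20.1% were likewise lower without overlap in total RNA and 17.1% in long tails. In the main test used below Cnot7 itself did not pass (limma adjusted p = 0.153 in total RNA and 0.173 in long tails). The authors' deposited tables list it at -1.12 in total RNA and -1.18 in long tails on the log2 scale. The neuron markers Map2, Rbfox3, Syn1, Snap25 and Camk2a were present in every library, and the 15 markers of the list summed to 5564 to 8145 TPM per library. Astrocyte markers (10 genes) were also abundant, at 4101 to 7073 TPM per library, and 12 markers of the oligodendrocyte lineage summed to 1072 to 1999 TPM, so the cultures held glial RNA beside neuronal RNA. The 9 microglia markers summed to 1 to 10 TPM, with Aif1, Cx3cr1, Itgam, Tmem119 and Ptprc at 0 TPM in every library. The 8 endothelial and mural markers summed to 151 to 327 TPM, of which the smooth muscle actin Acta2 made up 138 to 318 TPM per library, and Pecam1, Cldn5 and Tek were at 0 TPM in every library. The read depth behind these values is unknown. Rn45s, a precursor of ribosomal RNA, took 2.90% (knockdown long-tail library 2) to 18.6% of TPM (knockdown long-tail library 1).

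Promoters of respiratory genes are known for binding sites of the nuclear factors NRF1 and GABP (an ETS factor), so the letters of these sites were looked for in the RefSeq sequences (GRCm38.p6) of the 250 bases before the start. Windows were found for 36 of the 46 members, 40 windows in all. For 29 member windows the next 30 bases were found in a transcript start, so the place of the others is less certain. The NRF1 letters, GCGC then any base then TGCGC on either strand, were in 17.5% of the member windows (7 members), against 3.74% of all 32851 windows. The ETS letters CCGGAAG, on either strand, were in 22.5% of the member windows (9 members), against 6.91% of all windows. The letters AAGATGGC of the factor YY1, on either strand, were in 5% (2 members), against 1.56% of all. Either NRF1 or ETS letters were present in 13 of the 40 member windows, compared with 10.1% of all windows. Of the 36 members with a window, 13 had either, 3 had both, and 22 had none of the 3 motifs. These are descriptions of letters and not of binding. The 3 windows with both motifs (Cox6a1, Atp5h and Sdhd), the window with 3 NRF1 matches (Sdha) and that of Uqcrfs1, the member with the largest knockdown difference and no match, are given here 5′ to 3′ on the gene's strand, with motif letters in capitals:
Cox6a1 (chr5:115348959-115349208, minus strand): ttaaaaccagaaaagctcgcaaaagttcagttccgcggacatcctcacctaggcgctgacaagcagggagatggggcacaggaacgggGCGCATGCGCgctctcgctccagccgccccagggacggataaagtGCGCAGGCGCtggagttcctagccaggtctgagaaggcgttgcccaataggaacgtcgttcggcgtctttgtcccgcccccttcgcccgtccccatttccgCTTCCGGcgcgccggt
Atp5h (chr11:115419920-115420169, minus strand): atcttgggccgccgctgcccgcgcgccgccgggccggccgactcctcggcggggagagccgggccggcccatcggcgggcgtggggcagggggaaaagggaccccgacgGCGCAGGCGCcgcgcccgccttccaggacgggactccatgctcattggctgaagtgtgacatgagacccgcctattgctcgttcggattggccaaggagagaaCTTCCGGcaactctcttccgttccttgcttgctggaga
Sdhd (chr9:50603850-50604099, minus strand): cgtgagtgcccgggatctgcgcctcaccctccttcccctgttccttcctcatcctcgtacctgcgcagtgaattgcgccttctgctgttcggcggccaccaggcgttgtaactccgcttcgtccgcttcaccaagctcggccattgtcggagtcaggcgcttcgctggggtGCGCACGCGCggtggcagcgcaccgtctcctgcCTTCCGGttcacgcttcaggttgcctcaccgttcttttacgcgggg
Sdha (chr13:74350241-74350490, minus strand): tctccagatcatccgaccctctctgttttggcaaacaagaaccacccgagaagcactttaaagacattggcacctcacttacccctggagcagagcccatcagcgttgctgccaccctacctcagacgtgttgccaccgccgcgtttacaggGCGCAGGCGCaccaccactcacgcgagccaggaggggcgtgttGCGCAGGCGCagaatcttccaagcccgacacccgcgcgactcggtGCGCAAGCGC
Uqcrfs1 (chr13:30545317-30545566, minus strand): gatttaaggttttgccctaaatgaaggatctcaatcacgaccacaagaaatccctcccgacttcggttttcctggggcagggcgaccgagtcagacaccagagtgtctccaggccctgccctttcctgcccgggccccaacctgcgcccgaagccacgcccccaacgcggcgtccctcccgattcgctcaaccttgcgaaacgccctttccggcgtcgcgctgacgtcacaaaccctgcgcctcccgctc

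The members were among the most abundant mRNAs of these cultures, 40 of 46 at a mean of 100 TPM or more against 1692 of all 13681 genes, and complex II had the lowest levels of the complexes. Together they took 2.01% and 2.98% of summed TPM in knockdown long tails, 2.34% and 2.60% in scrambled long tails, 2.10% and 1.76% in knockdown total RNA, and 2.13% and 2.04% in scrambled total RNA. Mean levels over the 8 libraries had a median of 182 TPM in complex II, 397 TPM in complex III, 409 TPM in complex IV and 505 TPM in complex V, and Cycs was at 86.75 TPM. The range was narrow in complex II, from Sdhd, a membrane anchor, at 141.6 TPM to Sdhc, the other anchor, at 191 TPM. It was wide in complex IV, from Cox4i2 to Cox6a1 at 1813 TPM, and in complex V, from Atp5s at 14.9 TPM to Atp5b, the catalytic beta subunit, at 1276 TPM. Complex III ran from Uqcrfs1, the Rieske iron-sulfur protein, at 109 TPM to the small subunit Uqcr11 at 971 TPM.

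Within complex III the level followed no single role. The small subunits Uqcr10, Uqcrq and Uqcrb averaged 583.0, 560 and 397 TPM, the hinge protein Uqcrh 482.5 TPM, the core proteins Uqcrc1 and Uqcrc2 307 and 186 TPM and cytochrome c1, Cyc1, 221 TPM. In complex IV the nuclear subunits that surround the catalytic core were led by Cox6a1, Cox8a at 1484 TPM and Cox6b1 at 1245 TPM. Cox6c, Cox4i1, Cox7c and Cox5b followed at 844.0 to 916 TPM, and Cox5a was at 409 TPM. Cox7a2, Cox7a2l, which takes part in joining complexes III and IV, and Cox7b were at 245.0 to 265 TPM. The spread within complexes III and IV was thus wider than that between the medians of the complexes.

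In complex V the parts of the rotary machine also differed. The catalytic head had Atp5b at 1276 TPM and Atp5a1 at 681 TPM, and the central stalk had Atp5c1 (gamma) at 370 TPM, Atp5d (delta) at 666 TPM and Atp5e (epsilon) at 210 TPM. The peripheral stalk had Atp5h (subunit d) at 561 TPM, Atp5o (the oligomycin sensitivity protein) at 505 TPM, Atp5j (factor F6) at 344.5 TPM and Atp5f1 (subunit b) at 301 TPM. The membrane subunits g, f and e, encoded by Atp5l, Atp5j2 and Atp5k, were at 777, 725 and 389 TPM. Atp5sl was at 29.75 TPM. Uqcrh, Atp5l, Atp5k, Atp5c1 and Cycs have named pseudogenes in GENCODE M21, with which reads may be shared, so their levels are uncertain to that extent. Only pseudogenes that carry the gene's own name were looked for, so the other members may be affected as well.

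The most abundant members show how the libraries of a group differed. Cox6a1 was at 1814 and 2437 TPM in knockdown long tails, 2045 and 1923 TPM in scrambled long tails, 1735 and 1338 TPM in knockdown total RNA and 1863 and 1347 TPM in scrambled total RNA. Cox8a was at 1519 and 1765 TPM in knockdown long tails, 1888 and 1639 TPM in scrambled long tails, 1382 and 989 TPM in knockdown total RNA and 1615 and 1073 TPM in scrambled total RNA. For both, library 2 of each total group was well below library 1. Cycs, the soluble carrier between complexes III and IV, was at 59 and 113 TPM in knockdown long tails, 85 and 113 TPM in scrambled long tails, 80 and 86 TPM in knockdown total RNA and 69 and 89 TPM in scrambled total RNA, and here library 2 was higher in each group. Over the members, library 2 minus library 1 had a median of 0.47 on the log2 scale in knockdown long tails, with 44 higher and 1 lower, while the median of all genes was 0.00. It was 0.14 in scrambled long tails, where all genes had 0.15. In knockdown total RNA it was -0.25 (all genes -0.05), and in scrambled total RNA -0.02 (all genes 0.00). The members therefore moved together between the libraries of the knockdown groups. So did the 37 Nduf subunits of complex I. Relative to each gene's mean, their medians in libraries 1 and 2 were -0.11 and 0.47 in knockdown long tails. In knockdown total RNA these Nduf medians were -0.06 and -0.32.

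**Figure D1:**
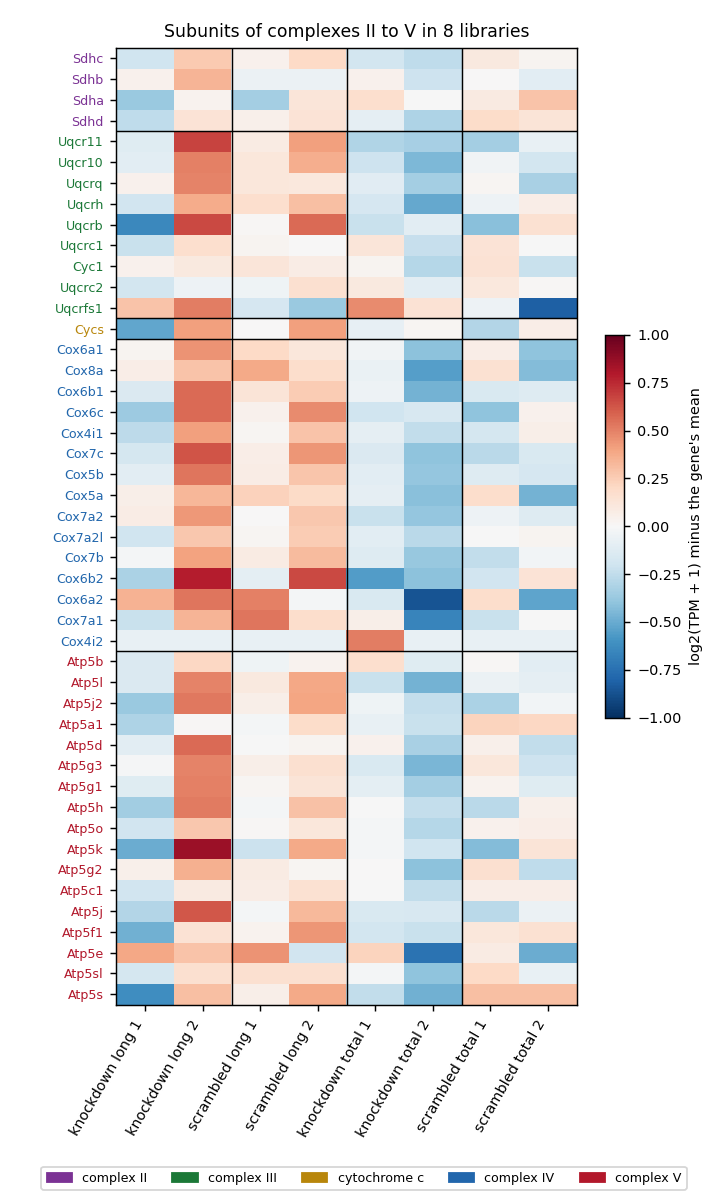
Level of each of the 46 members in the 8 libraries, as log2(TPM + 1) minus the gene's own mean over libraries; rows are genes by complex from the highest to the lowest mean, columns are libraries with knockdown left of scrambled. Knockdown long-tail library 2 was above library 1 for 44 members, and knockdown total library 2 was below library 1 for 42. Of all tested genes, 47.2% were higher in library 2 of knockdown long tails and 33.4% in library 2 of knockdown total RNA.

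Where a subunit has alternative forms, 1 form made up nearly all of the mRNA for most pairs. Cox4i2, the form of subunit 4 known from lung and low oxygen, was 0.0867% to 0.244% of the summed Cox4i1 and Cox4i2 level per library. It was at 2 TPM in knockdown total library 1 and at 1 TPM in every other library. These values are rounded to whole numbers, so the range of this share is set by rounding and by the Cox4i1 level. Cox6a2, the heart and skeletal muscle form, was 1.33% to 2.32% of the Cox6a level, with 43 and 49 TPM in knockdown long tails, 48 and 33 TPM in scrambled long tails, 30 and 18 TPM in knockdown total RNA and 38 and 23 TPM in scrambled total RNA. These minor forms stayed small in every library, whatever the hairpin or fraction. Cox7a1, also a muscle form, was 6.10% to 10.6% of the summed Cox7a1 and Cox7a2 level. Cox6b2, known as the testis form, was 6.45% to 11.5% of the Cox6b level. The genes for subunit c of the proton-driven ring, which encode the same mature protein behind different targeting peptides, were all abundant. Atp5g1 made up 35.8% to 39.6% of their sum, Atp5g2 22.3% to 25.7% and Atp5g3 36.4% to 39.2%.

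After Cnot7 knockdown no subunit of complexes II to V passed the test in total RNA, and the fitted differences were mostly small and below 0. In limma, fitted on log2(TPM + 1) over all tested genes with Benjamini-Hochberg adjustment, 0 of 46 members were called at an adjusted p under 0.05, and neither was any other gene (0% of 13681). At an unadjusted p under 0.05 there was 1 member, compared with 6.34% of all genes. The authors' deposited table for total RNA, which holds 0.76% of the tested genes, listed 0 members. Of the fitted differences, 7 were above and 39 below 0, with a median of -0.11 on the log2 scale. Over all genes 32.6% were above and 60.2% below 0 and the median was -0.07. With quantile normalization the members had a median of -0.085, with 36 of 46 below 0, and all genes a median of -0.0084. With these libraries the 95% interval of a member's difference reached a median of 0.60 on the log2 scale to either side, and smaller differences could not be told from 0.

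By complex, the median difference in total RNA was -0.19 for II, -0.09 for III, -0.12 for IV and -0.18 for V. Both knockdown libraries were below both scrambled libraries for 13 members, compared with 20.1% of all genes in that direction, and above them for 1, compared with 8.68%. The 13 comprised 2 of complex II, 2 of complex III, 3 of complex IV and 6 of complex V. Atp5a1, the alpha subunit of the catalytic head, was at 640 and 579 TPM in knockdown, against 787 and 781 TPM in scrambled. Sdhd was at 132 and 113 TPM in knockdown, against 160 and 154 TPM in scrambled. These members came next after Uqcrfs1 in order of p, and knockdown lay below scrambled without overlap, but the differences of -0.36 each did not pass (limma adjusted p = 0.835 and 0.844). Atp5b, the partner of Atp5a1 in the catalytic head, overlapped between groups at 1431 and 1169 TPM in knockdown, against 1283 and 1180 TPM in scrambled (0.07). The low-abundance Atp5s was at 12 and 10 TPM in knockdown, against 18 and 18 TPM in scrambled (-0.67).

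Uqcrfs1 had the largest fitted difference of the members in each fraction, and it was above 0. In total RNA it was at 146 and 116 TPM in knockdown, against 101 and 59 TPM in scrambled. The long-tail values were 128 and 150 TPM in knockdown, against 93 and 81 TPM in scrambled. Both knockdown libraries lay above both scrambled libraries in each fraction, although the 2 scrambled total libraries were far apart. The fitted difference was 0.75 in total RNA (SE 0.277, 95% interval 0.06 to 1.43) and did not pass (limma adjusted p = 0.745, unadjusted 0.0384). In long tails it was 0.67 (95% interval -0.02 to 1.36, limma adjusted p = 0.580). Over the 16 alternative settings the difference in total RNA ran from 0.36, without scrambled total library 2, to 1.13, without scrambled total library 1, with adjusted p between 0.527 and 1. In long tails it ran from 0.56 to 0.78. Uqcrfs1 was not in either of the authors' deposited tables. The other 8 members of complex III ran from -0.35 to -0.03 in total RNA. The core protein Uqcrc1 was at 332 and 261 TPM in knockdown total RNA, against 337 and 305 TPM in scrambled, and cytochrome c1, Cyc1, at 224 and 181 TPM in knockdown, against 243 and 189 TPM in scrambled.

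In long tails the knockdown difference had no steady direction over the members. limma called 0 of 46 (0% of all genes), 0 were at an unadjusted p under 0.05 (8.72% of all genes) and the authors' deposited long-tail table held 0 of them (0.709% of all genes). Of the fitted differences 17 were above 0 (32% of all genes) and 28 below (61.2% of all genes), with a median of -0.04, compared with -0.10 over all genes. At a mean of 100 TPM or more the order was the other way. There 16 of 40 members were above 0 (median -0.03), against 55.4% of all genes (median 0.03). The sign of the members' median was set by single libraries. Without knockdown long-tail library 1 the median was 0.26, with 39 of 46 above 0 and 5 below. Without knockdown long-tail library 2 it was -0.31, with 4 of 46 above 0 and 41 below. In total RNA the median was -0.28 without knockdown total library 1, and 0.01 without knockdown total library 2, when 25 of 46 were above 0.

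Few members kept their groups apart in long tails, with knockdown above scrambled for 2 (8.91% of all genes) and below for 1 (17.1% of all genes). Sdhb, the iron-sulfur subunit of complex II, was at 190 and 233 TPM in knockdown, against 177 and 177 TPM in scrambled (0.25, limma adjusted p = 0.654). Atp5f1, a subunit of the peripheral stalk, was at 212 and 328 TPM in knockdown, against 303 and 403 TPM in scrambled (-0.40, limma adjusted p = 0.659). The groups overlapped for Atp5f1 and not for Sdhb. Markers of cell types also differed in fitted level between the same libraries, while limma called 0 of them (0% of all genes). All 12 oligodendrocyte lineage markers had lower fitted values in knockdown in both fractions, with list sums of 1246 to 1261 TPM in knockdown total RNA, against 1834 to 1994 TPM in scrambled, and of 1072 to 1359 TPM in knockdown long tails, against 1600 to 1999 TPM in scrambled. Of the 10 astrocyte markers 9 were lower in total RNA (60.2% of all genes) and 8 in long tails (61.2% of all genes). The neuron markers went the other way, with 9 of 15 higher in total RNA (32.6% of all genes) and 11 of 15 in long tails (32% of all genes). The part of these cell types in the values of the members was not tested. In bulk RNA fewer cells of a type and less RNA per cell cannot be told apart.

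**Figure D2:**
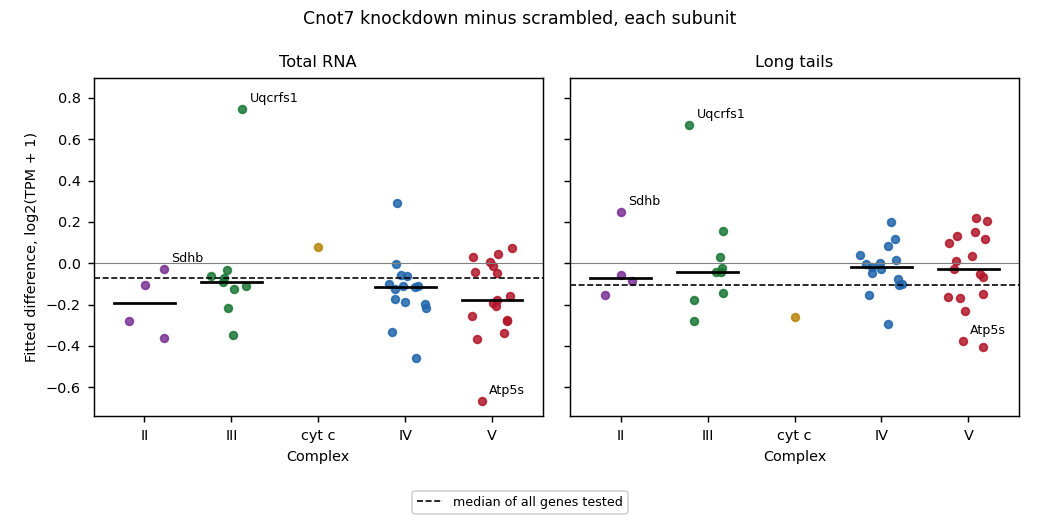
Fitted knockdown minus scrambled difference of each member on the log2(TPM + 1) scale, by complex, in total RNA (left) and long tails (right); each point is a gene, bars are medians of a complex and the dashed line is the median of all tested genes. Uqcrfs1 stood above the other members in both fractions, at 0.75 and 0.67, and no member passed the test.

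Most subunits had a higher fitted level in long tails than in total RNA in both conditions, with the highest median in complex IV, although no single gene passed the test. Long tails minus total was above 0 for 42 of 46 members in knockdown neurons (26.7% of all genes) and for 39 of 46 in scrambled neurons (20.7% of all genes). It was below 0 for 4 members in knockdown (68.7% of all genes) and for 6 in scrambled (74.3% of all genes), where Cox4i2 was equal at 1 TPM in each library. The median over members was 0.29 in knockdown and 0.23 in scrambled, while that of all genes was -0.22 in each. Genes of like level were closer to the members here too. At a mean of 100 TPM or more, the difference was above 0 for 38 of 40 members in knockdown (52.8% of all genes of that level). In scrambled it was above 0 for 35 of 40 (39.6%). The medians at that level were 0.31 in knockdown and 0.23 in scrambled for the members, against 0.02 and -0.07 for all genes. TPM is a share, so these are differences in share between fractions and not in tail length. limma called 0 members and 0% of genes in either condition. At an unadjusted p under 0.05 there were 2 members in knockdown (26% of all genes, in either direction) and 0 in scrambled (13.2% of all genes). Both long-tail libraries were above both total libraries for 15 members in knockdown (4.04% of all genes) and for 17 in scrambled (4.69% of all genes). They were below for 0 members in knockdown (40% of all genes) and for 1, Atp5a1, in scrambled (39.6% of all genes).

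Complex IV had the highest median of the complexes. It was 0.46 in knockdown and 0.33 in scrambled neurons, against 0.20 in knockdown and -0.03 in scrambled for complex II, 0.20 in knockdown and 0.23 in scrambled for complex III, and 0.22 in knockdown and 0.11 in scrambled for complex V. In scrambled neurons complex IV had the highest median of the 4 complexes and complex II the lowest under all 16 alternative settings, and in knockdown neurons complex IV was highest under 14 of 16, complex II lowest under 14 of 16 and complex IV above complex II under all 16. Complex III was above complex IV there when knockdown long-tail library 1 was left out (0.71 against 0.68) and when library 2 was (0.15 against 0.14). Several of the 16 settings could not change these medians. They were the fits to the compared libraries, the replicate block, the removed filter and leaving out a library of the other hairpin. The counts of settings are therefore not counts of independent checks. Cox7a2, a small membrane subunit, was at 276 and 353 TPM in long tails, against 224 and 200 TPM in total RNA of knockdown neurons. In scrambled neurons it was at 262 and 316 TPM in long tails, against 253 and 239 TPM in total RNA. It had the smallest p of the members in knockdown (0.56, 95% interval 0.14 to 0.98, limma adjusted p = 0.143, and 0.0522 to 0.392 over the alternatives). Cox6a2, given above, followed in knockdown at 0.95 (limma adjusted p = 0.170). Cox7c was at 873 and 1127 TPM in long tails, against 690 and 748 TPM in total RNA of scrambled neurons (0.46, limma adjusted p = 0.468). Cox7b, another small subunit, was at 255 and 301 TPM, against 203 and 237 TPM there (0.34, limma adjusted p = 0.452). Long tails were above total RNA without overlap in each of these scrambled pairs.

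In complex III the fitted differences ran from -0.11 to 0.59 in knockdown and from -0.05 to 0.45 in scrambled neurons, and no test between its subunits was made. Uqcr11, a small subunit, was at 865 and 1504 TPM in long tails, against 766 and 747 TPM in total RNA of knockdown neurons, and at 997 and 1249 TPM, against 744 and 894 TPM, in scrambled neurons. The fitted difference was 0.59 in knockdown and 0.45 in scrambled (limma adjusted p = 0.470 in scrambled). Of the other small subunits, Uqcr10 was at 0.53 in knockdown and 0.35 in scrambled, Uqcrq at 0.49 in knockdown and 0.26 in scrambled, and Uqcrb at 0.17 in knockdown and 0.42 in scrambled. The core proteins Uqcrc1 and Uqcrc2 were at 0.03 and -0.11 in knockdown, and at -0.05 and 0.00 in scrambled. Sdha, the flavoprotein of complex II that oxidises succinate, was the member with the lowest value in scrambled neurons. It was at 137 and 182 TPM in long tails, against 199 and 177 TPM in total RNA of knockdown neurons, and at 140 and 193 TPM, against 189 and 216 TPM, in scrambled neurons (-0.25 in knockdown and -0.30 in scrambled). Within complex V the catalytic subunits Atp5a1 (0.00 in knockdown and -0.13 in scrambled) and Atp5b (0.00 in knockdown and 0.04 in scrambled) were near 0. The subunit c gene Atp5g3 (0.54 in knockdown, limma adjusted p = 0.202, and 0.16 in scrambled), the membrane subunit Atp5l (0.53 in knockdown and 0.32 in scrambled) and the epsilon subunit Atp5e (0.59 in knockdown and 0.34 in scrambled) were above 0.

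**Figure D3:**
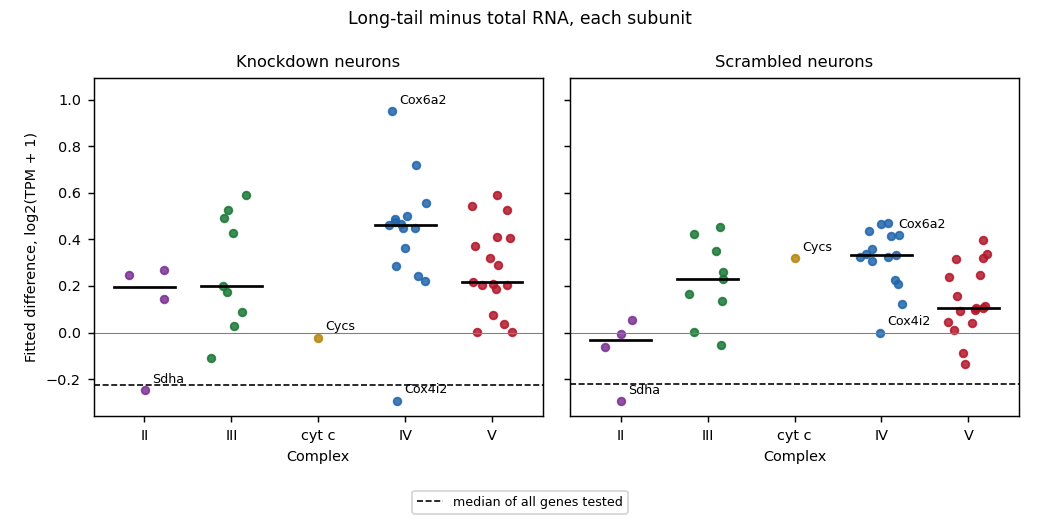
Fitted long-tail minus total difference of each member on the log2(TPM + 1) scale, by complex, in knockdown (left) and scrambled neurons (right); each point is a gene, bars are medians of a complex and the dashed line is the median of all tested genes. Complex IV had the highest median in both, 0.46 and 0.33, and Sdha lay near the median of all genes.

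The scrambled value kept its direction when any library was left out (0.09 to 0.27), while that in knockdown neurons was 0.04 without knockdown long-tail library 2 and 0.64 without knockdown long-tail library 1. With quantile normalization the median of the members was 0.28 in knockdown and 0.26 in scrambled neurons, while that of all genes moved to 0.03 in knockdown and -0.02 in scrambled. Rn45s also differed between these libraries. It took 18.6% and 2.90% of TPM in knockdown long tails, 17.2% and 7.46% in scrambled long tails, 6.07% and 14.3% in knockdown total RNA, and 6.86% and 7.80% in scrambled total RNA. With Rn45s left out, the members took 2.46% and 3.07% of knockdown long tails, 2.83% and 2.81% of scrambled long tails, 2.23% and 2.05% of knockdown total RNA and 2.29% and 2.21% of scrambled total RNA. The part of Rn45s in the values of single genes was not tested beyond this rescaling. Every long-tail library was then above every total library, and the median long-tail minus total difference was 0.30 in knockdown and 0.31 in scrambled neurons.

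**Figure D4:**
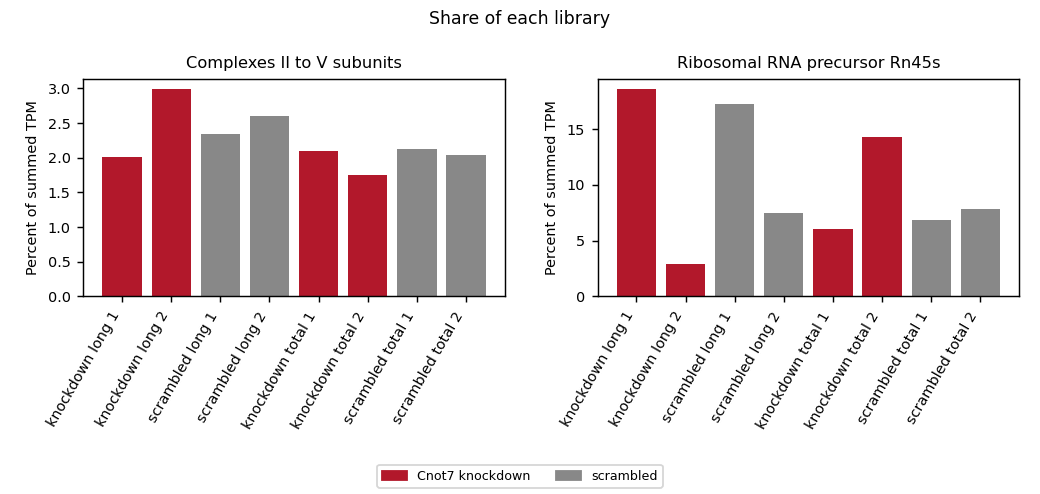
Share of summed TPM taken by the 46 members (left) and by Rn45s (right) in each library, as percent, with knockdown bars in red and scrambled bars in grey. The members' share ran from 1.76% in knockdown total library 2 to 2.98% in knockdown long-tail library 2, where Rn45s was lowest at 2.90%.

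Most members are short mRNAs, and short mRNAs had higher long-tail shares across the whole table. The median transcript length (GENCODE M21, GRCm38) was 736 nt for the members and 2771 nt for the tested genes that could be matched (95.6%), with 28 of 46 members under 1000 nt. By complex it was 1612 nt for II, 535 nt for III, 645 nt for IV and 747.5 nt for V. Among genes under 600 nt the median long-tail minus total difference was 0.49 for the 15 members and 0.32 for all genes in knockdown neurons, and 0.33 for the members and 0.24 for all genes in scrambled neurons. From 600 to under 1000 nt it was 0.32 for 13 members and 0.27 for all genes in knockdown, and 0.25 for the members and 0.17 for all genes in scrambled. From 1000 to under 2000 nt it was 0.17 for 14 members and 0.06 for all genes in knockdown, and 0.05 for the members and 0.00 for all genes in scrambled. In the 4 members of 2000 to under 4000 nt it was -0.01 in both conditions, against -0.23 in knockdown and -0.24 in scrambled for all genes of that length, and no member was longer. In each of these groups the members' median was above that of all genes of the same length. Across members the Spearman correlation of length with the difference was -0.70 in knockdown and -0.69 in scrambled neurons (n = 46 genes of the same libraries), and across all genes -0.73 and -0.71, as a description.

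**Figure D5:**
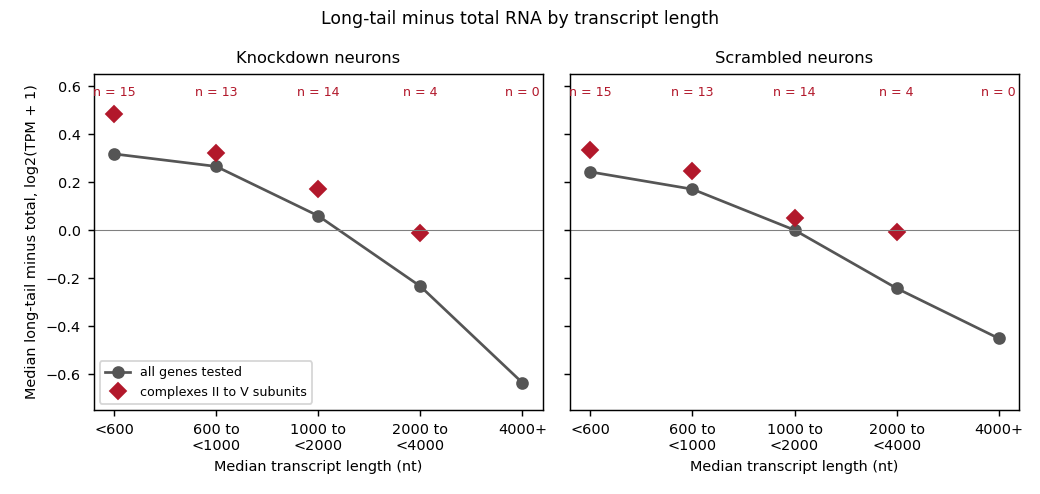
Median long-tail minus total difference on the log2(TPM + 1) scale by transcript length in nt, for all tested genes (grey) and for the members (red, with their number above), in knockdown (left) and scrambled neurons (right). Both medians were lower at greater length, and the members' points lay above the grey line in every bin that held members.

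Whether knockdown altered the long-tail share relative to the total share was tested by the interaction, which subtracts the knockdown difference of total RNA from the one of long tails. limma called 0 of 46 members (0% of all genes), and 0 were at an unadjusted p under 0.05 (0.877% of all genes). It was above 0 for 35 of 46 members (42.8% of all genes) and below 0 for 11 (53.5% of all genes), with a median of 0.11 against -0.02 over all genes. Genes of like level were closer to the members. At a mean of 100 TPM or more, 65.6% of all genes were above 0 (median 0.07), and 32 of 40 members (median 0.12). The 3 members with the smallest p were Cox7a2 (0.33), Sdhb (0.28) and Atp5g3 (0.39), each at a limma adjusted p of 1.00. Atp5g3 was at 593 and 845 TPM in knockdown long tails, 623 and 671 TPM in scrambled long tails, 538 and 437 TPM in knockdown total RNA and 647 and 519 TPM in scrambled total RNA, so knockdown and scrambled overlapped in each fraction. The median over members turned to -0.12 without knockdown long-tail library 2, was -0.04 without knockdown total library 2 and was 0.40 without knockdown long-tail library 1. Under quantile normalization it was 0.00. The direction of the interaction therefore rested on single libraries and on the scaling.

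Other genes of the pathway gave 0 calls in limma as well. Of 21 tested complex IV assembly genes 8 were higher and 12 lower in knockdown total RNA, with a median of -0.08. Cox15, which makes the heme A of complex IV, was at 10 and 10 TPM in knockdown total RNA, against 22 and 22 TPM in scrambled, and at 8 and 8 TPM in knockdown long tails, against 15 and 21 TPM in scrambled. Its difference was -1.06 in each fraction (limma adjusted p = 0.284 in total and 0.320 in long tails). The authors' deposited table of total RNA lists it at -0.87 (adjusted p = 0.000836), and the authors' deposited table of long tails at -0.92 (adjusted p = 0.000302). Of 7 complex III and cytochrome c assembly genes 4 were higher and 3 lower (median 0.01). Ttc19, which acts on the Rieske protein after its insertion into complex III, was at 45 and 41 TPM in knockdown total RNA, against 34 and 29 TPM in scrambled, and at 33 and 31 TPM in knockdown long tails, against 24 and 24 TPM in scrambled (0.44 in total RNA, limma adjusted p = 0.594, and 0.40 in long tails, limma adjusted p = 0.503). Ttc19 and Uqcrfs1 were both higher in each knockdown library than in each scrambled library of the same fraction, without passing the test. Of all genes, 8.68% were higher without overlap in total RNA and 8.91% in long tails. Both genes are named for having the smallest p of their lists, and a link between them was not tested.

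The 4 complex II assembly genes had a median of -0.27 in total RNA and -0.14 in long tails, and the 3 of complex V -0.10 and -0.22. The 15 nuclear regulators, among them the coactivators of the PGC-1 family and the factors Nrf1 and Gabpa, had a median of -0.11 in total RNA and -0.28 in long tails, with 11 and 13 of them lower in knockdown. The receptor Esrra was at -0.47 in total RNA (limma adjusted p = 0.690). Unlike the subunits, 0 of the 15 regulators were above 0 in long tails minus total, against 26.7% of all genes in knockdown and 20.7% in scrambled neurons. Their medians were -0.39 in knockdown and -0.29 in scrambled neurons, against -0.22 for all genes in each. Their transcript lengths were not compared. The 4 genes of the complexes that the name pattern misses, Ndufa4, Usmg5, 2010107E04Rik and the ATP synthase inhibitor Atpif1, were all above 0 in long tails minus total (medians 0.34 in knockdown and 0.43 in scrambled neurons).

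Complexes II to V had a median knockdown difference of -0.11 in total RNA and -0.04 in long tails, and a median long-tail minus total difference of 0.29 in knockdown and 0.23 in scrambled neurons. The 37 subunits of complex I named Nduf had a knockdown difference of -0.11 in total RNA and 0.04 in long tails, and a long-tail minus total difference of 0.37 in knockdown and 0.20 in scrambled. The 77 proteins of the mitochondrial ribosome named Mrpl or Mrps had a knockdown difference of -0.04 in total RNA and 0.03 in long tails, and a long-tail minus total difference of 0.25 in knockdown and 0.20 in scrambled. No test between these gene groups was made.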

How the data were processed

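Members, gene lists and tests were chosen with earlier results of these data known. The submitters' processing notes name mm10, RSEM, TopHat2, CASAVA, DESeq and DESeq2, with versions and roles not given in the sources used here. Gene values are TPM, per the deposited table's name and values, a score that the authors rounded to whole numbers. Read counts and library depth were not used here. Per the file headers, the authors' deposited result tables hold a mean signal (normalized counts), a test score, a log2 fold change and a p-value per gene; their sign was turned so that positive means higher in knockdown.

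log2(TPM + 1) of the 13681 genes that averaged 1 TPM or more was fitted in limma 3.58.1 (R 4.3.3; lmFit, eBayes with trend) with 4 group means over 8 libraries, two-sided, with Benjamini-Hochberg adjustment over all genes; this code was tested on simulated data. With 2 libraries against 2, the smallest p of an exact permutation test is 0.333, and no such test is given. Dates stood in place of gene names for 27 entries, which matched no gene. Genes with per-library values were Cnot7, the 3 most abundant members per complex, the 3 with the smallest p per contrast, isoforms, and those of other lists with the smallest p or in an authors' table; further members are given as examples chosen after their values were seen. Alternatives were the pseudocount, the filter, leaving out Rn45s, quantile normalization, fits to the compared libraries, a replicate block and leaving out each library.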

Additional observations from a re-analysis of the deposited data

How the results depend on the processing

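Of the medians over members and complexes and the counts of members called, 33 values moved beyond the spread between libraries or the count limit, all on leaving out knockdown long-tail library 1 or 2, and no call reversed; the cause was not tested. For knockdown minus scrambled in long tails, leaving out 1 library at a time gave -0.31 to 0.26 over all members, -0.29 to 0.14 for complex II, -0.24 to 0.26 for III, -0.72 to 0.20 for cytochrome c, -0.28 to 0.29 for IV and -0.33 to 0.25 for V. For long tails minus total in knockdown neurons it gave 0.039 to 0.64 over all members, -0.016 to 0.38 for II, 0.15 to 0.71 for III, -0.48 to 0.44 for cytochrome c, 0.14 to 0.68 for IV and -0.065 to 0.64 for V, with 0 to 1 members called. For the interaction it gave -0.12 to 0.40 over all members, -0.013 to 0.41 for II, -0.13 to 0.40 for III, -0.80 to 0.12 for cytochrome c, -0.14 to 0.35 for IV and -0.11 to 0.41 for V. Without knockdown long-tail library 1, limma called 2125 genes in that long-tail minus total comparison, when a single library stood for its group and was assumed to vary like the others. Cnot7 passed only with genes of a mean of at least 20 TPM, fewer genes being tested (-1.42 in total RNA, adjusted p = 0.0253, and -1.48 in long tails, adjusted p = 0.0154). With the replicate number as a block, 0 members and 0 genes were called in each of the 5 comparisons. The labels do not say whether the numbers pair the libraries. In their deviations from the group means same-numbered libraries correlated at 0.218 to 0.605 for 5 of the 6 pairs of groups but at -0.108 between knockdown total and knockdown long tails. Endothelial and mural markers summed to 151 to 201 TPM in the libraries numbered 1 and to 274 to 327 TPM in those numbered 2. Oligodendrocyte lineage sums were lower in library 2 of the total groups and higher in library 2 of the long-tail groups. Pairing was not tested further. With the numbers crossed in knockdown long tails against total, chosen after seeing the data, 0 genes were called. Depth is unknown, so counting error could not be set beside these values.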
